A study of Homo sapiens with 4 samples.

Results

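The genes described here code for the collagens, laminins, matrix glycoproteins, proteoglycans and collagen cross-linking enzymes of the extracellular matrix. They are 35 genes taken by name, of 19775 genes measured on whole-transcriptome arrays, each represented by its brightest probe set (mean log2 intensity over the 4 arrays). The arrays held RNA from A375 and SK-MEL-28, 2 established lines of human melanoma that both carry an activating BRAF mutation. Each line was transfected with a negative control siRNA or with an siRNA for ZIC5, a zinc-finger transcription factor, and RNA was taken after 48 h. There was 1 array for each of the 4 combinations, so no replicate backs a within-line difference. Both lines are long-passaged tumour cultures without stromal cells, the control groups were transfected too, and the siRNA sequences were not used here.

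The matrix is built from fibrillar collagens, which give tensile strength, and from the sheet-like basement membrane, in which type IV collagen and laminin networks are tied together by nidogens. Glycoproteins such as fibronectin link cells to these networks through integrins, proteoglycans bind water and space the fibrils, and lysyl oxidases join collagen chains covalently. Melanoma cells make part of their own matrix, and its makeup is known to differ between cell states of the disease.

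Of the 35 matrix genes, 30 had a mean log2 intensity of at least 5 (an intensity of 32), the level minimum used for counts and tests, as had 13794 of all genes. COL1A2, COL3A1, NID2, THBS2 and POSTN were under it. A further 4 genes (BGN, EFEMP1, NID1 and PTX3) reached the minimum only through A375 and LOX only through SK-MEL-28, so 25 were at the minimum in each line. Array medians lay between 38.4 and 39.4, so the minimum of 32 is under them and is no detection limit. The targeted gene, ZIC5, stood at 16.8 and 14.1 in the A375 pair of arrays and at 21.4 and 15.5 in the SK-MEL-28 pair with control and ZIC5 siRNA, all under 32, so these arrays give no check of the knockdown. Of 8 melanocyte lineage markers 7 were measured. All 7 were at 32 or more in SK-MEL-28, while MLANA (13.9 and 17.0) and TYRP1 (7.51 and 8.10) were under it on both A375 arrays, and TYR (33.5 and 26.7) on the ZIC5 siRNA array. The 5 endothelial markers summed to 177 to 223, the 3 leukocyte markers measured to 80.5 to 93.7 and the 4 keratinocyte markers, mostly through KRT10, to 1535 to 3724 over the arrays. The 8 fibroblast and pericyte markers summed to 431 and 327 in A375 and to 298 and 279 in SK-MEL-28. PDGFRA, FAP and DPT were under 32 on every array. PDGFRB (41.4 to 56.5), THY1 (49.7 to 59.2) and CD248 (62.3 to 77.9) were over 32 on every array, and PDPN lay between 29.7 and 35.3. In that list the actin ACTA2 read 172 with control and 63.3 with ZIC5 siRNA in A375. Its part in the matrix differences was not tested. In cultured cells read in bulk, fewer cells of a state and less RNA per cell cannot be told apart.

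**Figure D1:**
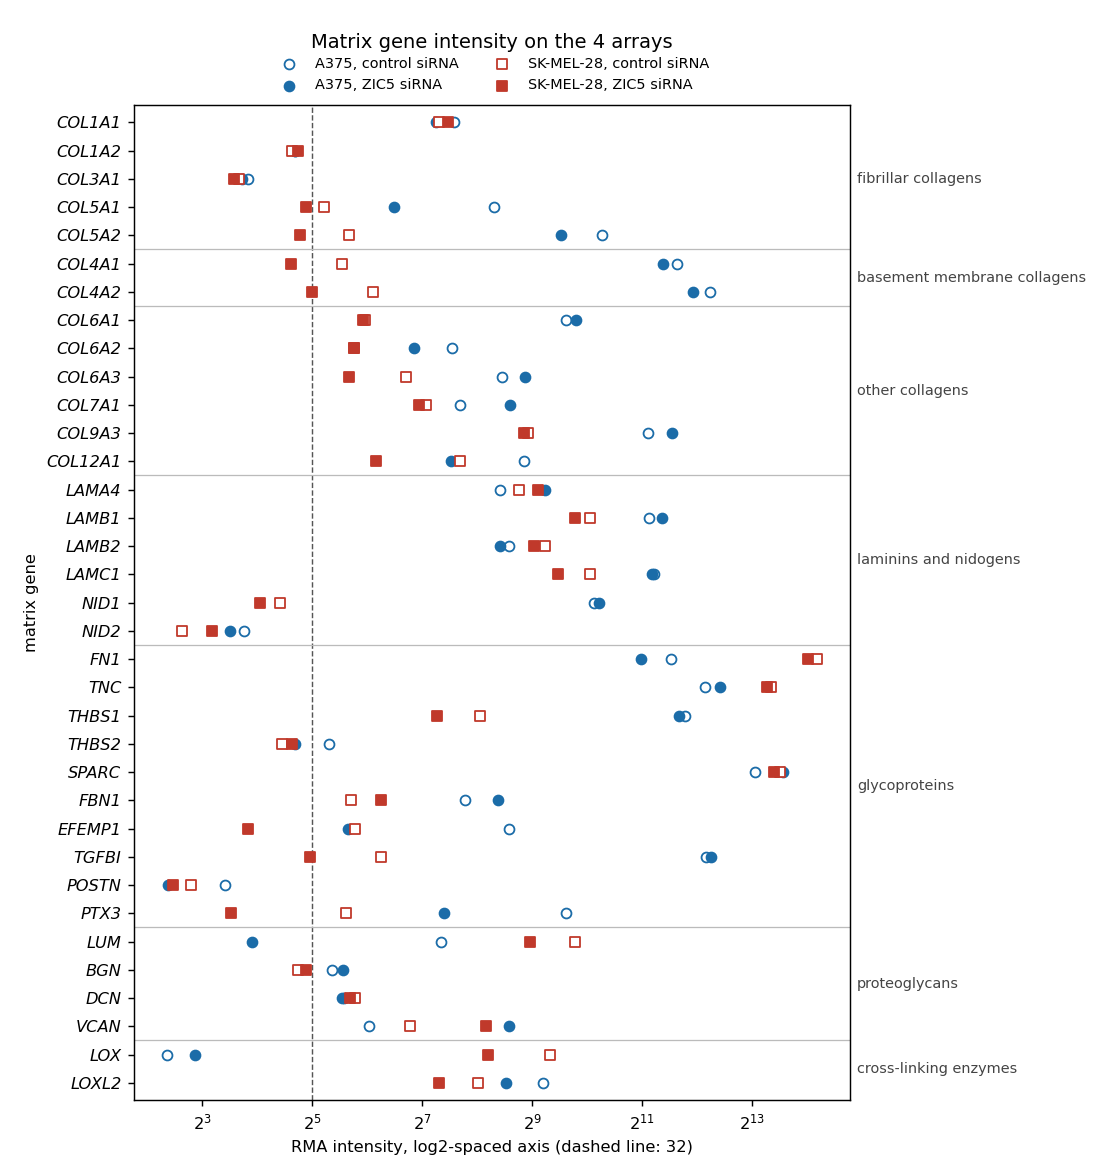
RMA intensity of the 35 matrix genes (rows, by class) on the 4 arrays, on a log2-spaced axis, with open symbols for control siRNA and filled symbols for ZIC5 siRNA. COL4A1, COL4A2, NID1 and TGFBI lie between 1121 and 4855 in A375 and between 16.4 and 75.6 in SK-MEL-28, LOX is at 5.10 and 7.32 in A375 and at 644 and 293 in SK-MEL-28, and VCAN with ZIC5 siRNA lies right of its control in both lines.

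With ZIC5 siRNA the matrix genes did not move as a block. A difference is the log2 intensity on the ZIC5 siRNA array less the log2 intensity on the control array of that line, and paired values are given in the order control, ZIC5 siRNA. In A375, 5 of the 30 genes were at least 2-fold lower (COL5A1, COL12A1, EFEMP1, PTX3 and LUM), against 5.05% of all genes. Only VCAN was at least 2-fold higher there, against 3.89%. In SK-MEL-28, 7 of 30 were at least 2-fold lower (COL4A2, COL6A3, COL12A1, EFEMP1, TGFBI, PTX3 and LOX), against 2.12%, and again VCAN alone was at least 2-fold higher, against 0.776%. EFEMP1 and PTX3 passed the level minimum only through A375. With intensities under 32 set to 32, their SK-MEL-28 differences were -0.77 and -0.61, so neither then counts as 2-fold lower there. COL12A1, EFEMP1 and PTX3 were at least 2-fold lower in both lines, against 1.15% of all genes, and VCAN at least 2-fold higher in both, against 0.312%. With intensities under 32 set to 32, or with a level minimum of mean log2 7, COL12A1 was the one gene left that was at least 2-fold lower in both lines. The remaining 20 of 30 genes stayed within 2-fold in both lines on the probe sets used.

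The 30 genes had a median difference of -0.04 for A375 and of -0.30 for SK-MEL-28, beside -0.01 and 0.00 over all genes. In A375 the genes were split, with 16 lower and 14 higher, beside 7068 lower and 6693 higher of all 13794 genes. In SK-MEL-28 24 were lower, 5 were higher and COL6A2 did not differ, beside 6842 lower and 6931 higher of all genes. These counts include LOX in A375 and NID1 and BGN in SK-MEL-28, whose differences were 0 with intensities under 32 set to 32. Over all 35 genes with no level minimum, A375 had 20 lower and SK-MEL-28 had 26. The difference was more negative in SK-MEL-28 than in A375 for 23 of 30 genes, a count with no share over all genes beside it. Across the 30 genes, which share the same 4 arrays, differences in A375 and SK-MEL-28 correlated with r = 0.67 (Pearson) and rho = 0.52 (Spearman). Over all genes Pearson's r was 0.44. It was 0.27 over the matrix genes without COL12A1, EFEMP1, PTX3 and VCAN. These 4 were dropped because they were 2-fold different the same way in both lines, so a lower r was built in. No such genes were dropped for the r of 0.44, so 0.27 cannot be set against it. Of the 30 genes 60.0% had the same sign in both lines, against 64.0% of all genes.

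**Figure D2:**
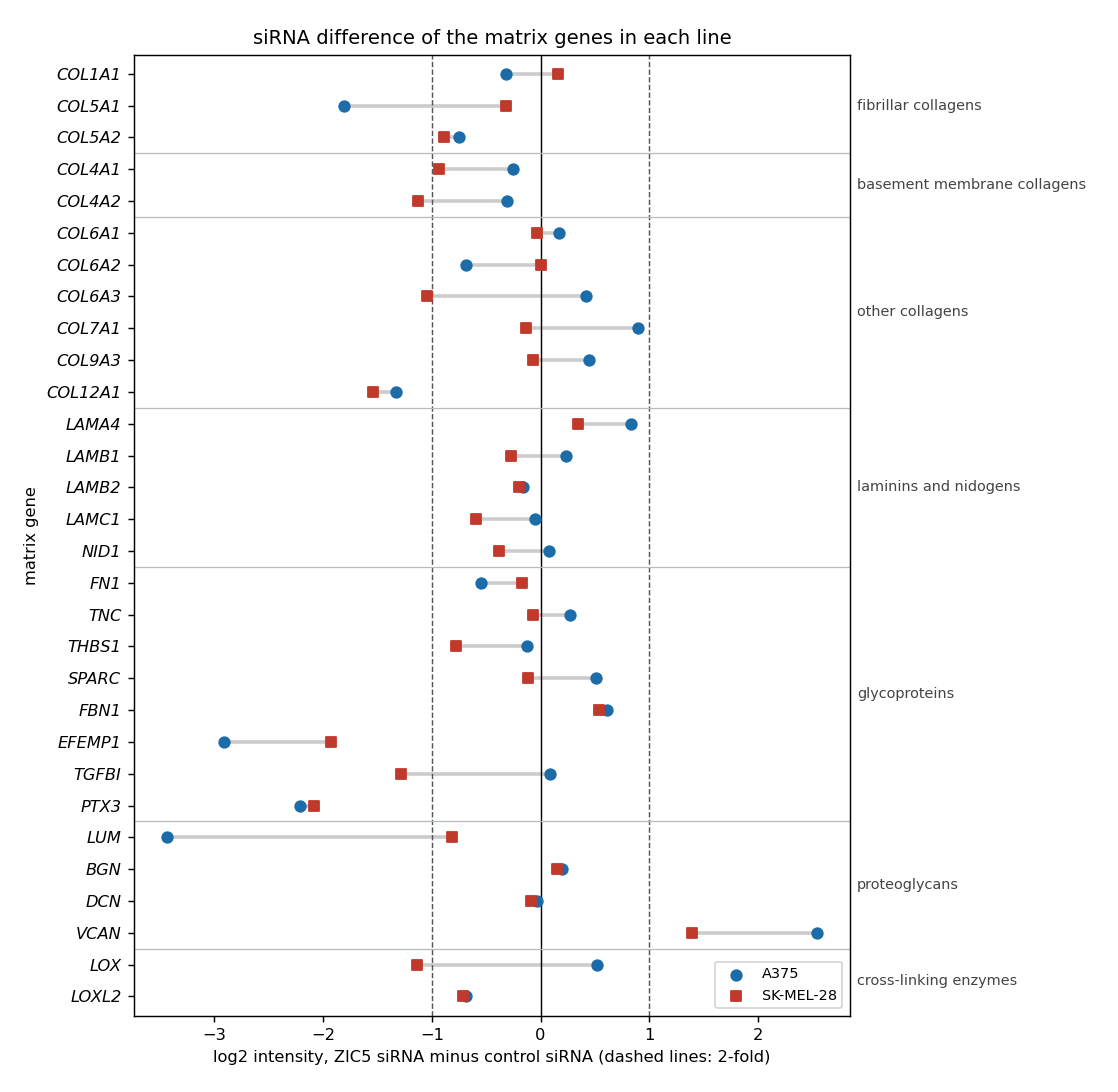
Difference in log2 intensity (ZIC5 siRNA minus control siRNA) of the 30 matrix genes at the level minimum, by class, with circles for A375 and squares for SK-MEL-28 and dashed lines at 2-fold. COL12A1, EFEMP1 and PTX3 lie left of the lower dashed line and VCAN right of the upper one in both lines, and most squares lie left of their circles.

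Fibrillar collagens were lower mainly through type V collagen, which co-assembles with type I collagen and regulates fibril diameter. COL5A1 read 314 on the control and 89.6 on the ZIC5 siRNA array of A375, and 36.9 against 29.5 for SK-MEL-28. That is 3.51-fold lower in A375, with differences of -1.81 and -2.33 on its probe sets at the level minimum, and a difference of -0.32 in SK-MEL-28, where the gene was near 32. COL5A2, the partner chain, gave 1232 (control) and 732 (ZIC5 siRNA) for A375, with 50.5 and 27.2 for SK-MEL-28. Its differences of -0.75 and -0.89 were alike in size, and both of its probe sets were lower in each line. COL1A1, a type I collagen chain, read 190 and 152 on the A375 arrays and 159 and 177 on those of SK-MEL-28. On this probe set its signs were opposite in the lines. Its other probe set at the level minimum gave 0.03 in A375 and 0.12 in SK-MEL-28, so its direction in A375 depended on the probe set. COL1A2 stayed between 24.7 and 26.6 and COL3A1 between 11.8 and 14.2 over the 4 arrays. No siRNA difference can be read for those chains at such low intensities.

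On the probe sets used, both type IV collagen genes were lower in SK-MEL-28. COL4A1 stood at 3174 and 2665 in the A375 pair of arrays and at 46.6 and 24.5 in the SK-MEL-28 pair. COL4A2 gave 4798 (control) and 3881 (ZIC5 siRNA) for A375, with 69.1 and 31.7 for SK-MEL-28. The pair, whose chains assemble into the same type IV collagen trimer, differed by -0.25 and -0.31 in A375 and by -0.93 and -1.12 in SK-MEL-28. COL4A2 was thus just past 2-fold in SK-MEL-28 and COL4A1 just short of it. The second probe sets, of lower intensity, gave 0.01 in A375 and 0.09 in SK-MEL-28 for COL4A1, and -0.30 and -0.26 for COL4A2, so on these the genes did not go the same way. With intensities under 32 set to 32, the SK-MEL-28 difference of COL4A1 became -0.54.

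These genes are transcribed away from each other, and their starts in the RefSeq annotation of GRCh38.p14 lie 127 bases apart on chromosome 13. The bases between the starts are shown because both genes start at this stretch. They are the 126 bases of chr13:110307158-110307283, on the COL4A2 strand, with capitals for a CCAAT box (match to CCAAT) and a GC box (match to GGGCGG).
COL4A1 and COL4A2, between the starts: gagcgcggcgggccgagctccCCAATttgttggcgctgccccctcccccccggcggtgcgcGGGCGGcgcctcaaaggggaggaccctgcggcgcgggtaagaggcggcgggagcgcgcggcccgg
The CCAAT match begins 105 bases and the GGGCGG match 65 bases before the COL4A2 start.

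Among the other collagens COL12A1 stood apart. It codes for a fibril-associated collagen that lies on the surface of type I collagen fibrils. COL12A1 read 462 on the control and 183 on the ZIC5 siRNA array of A375, and 207 against 71.1 for SK-MEL-28. It was 2.52-fold lower in A375 and 2.91-fold lower in SK-MEL-28, with all intensities above 32. In SK-MEL-28 its 3 probe sets above the minimum were all lower (-1.19 to -1.54), but in A375 the third gave 0.16 where the others gave -1.33 and -1.90. Over both lines the limma estimate was -1.44 (SE 0.18, 2 lines), with an adjusted p of 0.268.

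Type VI collagen, the beaded microfibril around many cells, is built from 3 chains, and these did not move together on the probe sets used. COL6A3 read 352 and 470 on the A375 arrays and 105 and 50.9 on those of SK-MEL-28, so it was higher by 0.42 in A375 and 2.06-fold lower in SK-MEL-28. COL6A1 differed by 0.17 and -0.03. COL6A2 differed by -0.69 in A375 and read 54.3 on both SK-MEL-28 arrays, while its second probe set gave 0.05 in A375 and -0.32 in SK-MEL-28. COL7A1, which forms the anchoring fibrils of skin, stood at 207 and 385 in the A375 pair of arrays and at 134 and 122 in the SK-MEL-28 pair, differences of 0.89 and -0.13. COL9A3, a chain of the type IX collagen found on cartilage fibrils, gave 2195 (control) and 2997 (ZIC5 siRNA) for A375, with 488 and 464 for SK-MEL-28. In this class 4 of 6 genes were higher in A375, and 5 of 6 were lower in SK-MEL-28.

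The 5 laminin and nidogen genes at the level minimum stayed within 2-fold on the probe sets used. On these LAMA4, the laminin alpha chain of vessel walls and of several tumour cells, was the one gene of this class that was higher in both lines: it read 340 and 605 on the A375 arrays and 432 and 548 on those of SK-MEL-28, differences of 0.83 and 0.34. Its 4 probe sets at the level minimum ran from -0.06 to 1.05 in A375 and from 0.21 to 0.66 in SK-MEL-28. LAMB1 stood at 2220 and 2615 in the A375 pair of arrays and at 1064 and 882 in the SK-MEL-28 pair. LAMC1, the gamma chain shared by most laminins, gave 2390 (control) and 2306 (ZIC5 siRNA) for A375, with 1063 and 705 for SK-MEL-28. LAMB1 therefore differed by 0.24 and -0.27, and LAMC1 by -0.05 and -0.59. The other LAMC1 probe set gave 0.87 in A375 and -0.01 in SK-MEL-28, so its direction in A375 depended on the probe set. LAMB2 differed by -0.16 and -0.20. NID1, which links laminin to type IV collagen, read 1121 and 1185 in A375, a difference of 0.08, while its SK-MEL-28 intensities of 21.4 and 16.4 were under 32. NID2 lay between 6.17 and 13.5.

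Among the glycoproteins EFEMP1 and PTX3 were at least 2-fold lower in both lines, with SK-MEL-28 values that end under 32. EFEMP1, a fibulin family member of elastic tissue and basement membranes, read 380 on the control and 50.5 on the ZIC5 siRNA array of A375, and 54.6 against 14.3 for SK-MEL-28. PTX3, a secreted pentraxin that binds microbes and stabilises hyaluronan matrix, read 782 and 168 on the A375 arrays and 48.7 and 11.5 on those of SK-MEL-28. EFEMP1 was 7.53-fold lower in A375 and 3.82-fold lower in SK-MEL-28, and PTX3 was 4.65-fold and 4.24-fold lower. The SK-MEL-28 ZIC5 siRNA values of both genes were 14.3 and 11.5, and a floor of 32 on all intensities brought their SK-MEL-28 differences to -0.77 and -0.61, short of 2-fold. Their limma estimates over both lines were -2.42 (SE 0.29) for EFEMP1 and -2.15 (SE 0.17) for PTX3, each with an adjusted p of 0.268 and 2 lines. With that floor the estimates were -1.84 and -1.41.

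TGFBI, an adhesion protein induced by TGF-beta, stood at 4583 and 4855 in the A375 pair of arrays and at 75.6 and 31.2 in the SK-MEL-28 pair. It was 2.43-fold lower in SK-MEL-28, while the A375 difference was 0.08. THBS1, a matricellular protein that binds CD47, gave 3530 (control) and 3246 (ZIC5 siRNA) for A375, with 265 and 154 for SK-MEL-28. Its 4 probe sets above the minimum were lower in both lines, by -0.78 to -0.99 in SK-MEL-28, but in A375 they ran from -0.12 on the probe set used to -2.46 on the one of lowest intensity. The size of the THBS1 difference in A375 therefore depended on the probe set.

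FN1, the fibronectin gene, read 2942 and 2007 on the A375 arrays and 18621 and 16599 on those of SK-MEL-28, and 5 of 6 probe sets were lower in A375 and 6 of 6 in SK-MEL-28. Its differences were -0.55 and -0.17. FBN1, the fibrillin of elastic microfibrils, was the glycoprotein that was higher in both lines: it stood at 219 and 334 in the A375 pair of arrays and at 52.3 and 75.8 in the SK-MEL-28 pair, differences of 0.61 and 0.53. The adhesion-modulating tenascin gene TNC differed by 0.28 and -0.07, and SPARC, a collagen-binding glycoprotein, by 0.51 and -0.12. THBS2 lay between 22.0 and 39.5 and POSTN between 5.20 and 10.7 over the arrays. The POSTN difference of -1.04 in A375 lies wholly under 32 and is not counted.

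Proteoglycans went in opposite directions by gene. VCAN, the large chondroitin sulphate proteoglycan that binds hyaluronan, read 65.5 on the control and 382 on the ZIC5 siRNA array of A375, and 109 against 287 for SK-MEL-28. It was 5.84-fold higher in A375 and 2.62-fold higher in SK-MEL-28. All 5 VCAN probe sets were higher in each line, by 1.93 to 2.55 in A375 and by 1.13 to 1.72 in SK-MEL-28. The limma estimate was 1.97 (SE 0.34, 2 lines), with an adjusted p of 0.270. LUM, or lumican, a small leucine-rich proteoglycan that spaces collagen fibrils, gave 162 (control) and 14.9 (ZIC5 siRNA) for A375, with 875 and 498 for SK-MEL-28. Its differences were -3.44 and -0.81, and the first became -2.34 with intensities under 32 set to 32. The related genes DCN (46.3 to 54.5 over the arrays) and BGN (26.5 to 47.2) differed by no more than 0.20 in either line on the probe set used.

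**Figure D3:**
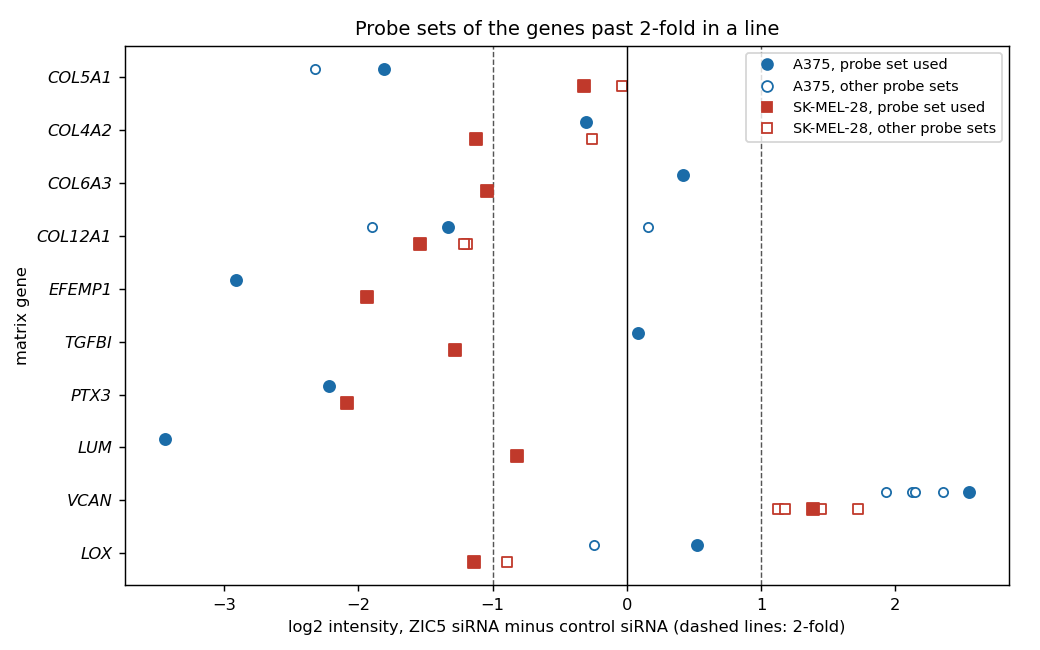
Difference in log2 intensity (ZIC5 siRNA minus control siRNA) on each probe set at the level minimum, for the 10 genes at least 2-fold different in a line, with filled symbols for the probe set used. The 5 VCAN probe sets lie past 2-fold in both lines, and 1 of 3 COL12A1 probe sets lies near 0 in A375.

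The cross-linking enzymes LOX and LOXL2 were lower in SK-MEL-28 on the probe sets used. LOX, the lysyl oxidase that starts covalent cross-linking of collagen and elastin, read 644 with control and 293 with ZIC5 siRNA in SK-MEL-28, 2.20-fold lower, and its other probe set at the level minimum gave -0.89. In A375 LOX read 5.10 and 7.32, so no siRNA difference can be read there. LOXL2 read 588 and 366 on the A375 arrays and 260 and 159 on those of SK-MEL-28, and its differences of -0.68 and -0.71 were alike in the lines. The second LOXL2 probe set gave -0.73 in A375 and 0.32 in SK-MEL-28. Other members of the family, LOXL3 and LOXL4, named after their values were seen, were higher in SK-MEL-28 by 0.78 and 0.28 and differed by -0.42 and -0.56 in A375.

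Of the 4 genes 2-fold different in both lines, 3 matched the RefSeq promoter table of GRCh38.p14. The 250 bases before each start are shown for these, as the genes that went the same way in both lines, with motif matches in capitals on either strand.
COL12A1, chr6:75206054-75206303, minus strand: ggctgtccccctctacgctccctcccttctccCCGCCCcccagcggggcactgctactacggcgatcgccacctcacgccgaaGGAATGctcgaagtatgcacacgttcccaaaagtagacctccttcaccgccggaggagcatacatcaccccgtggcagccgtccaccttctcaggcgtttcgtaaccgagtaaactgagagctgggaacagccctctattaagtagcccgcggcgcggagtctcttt
PTX3, chr3:157436600-157436849, plus strand: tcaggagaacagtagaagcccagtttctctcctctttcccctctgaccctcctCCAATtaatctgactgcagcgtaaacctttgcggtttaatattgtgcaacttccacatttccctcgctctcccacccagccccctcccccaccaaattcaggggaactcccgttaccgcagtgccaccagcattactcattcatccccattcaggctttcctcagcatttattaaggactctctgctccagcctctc
VCAN, chr5:83471494-83471743, plus strand: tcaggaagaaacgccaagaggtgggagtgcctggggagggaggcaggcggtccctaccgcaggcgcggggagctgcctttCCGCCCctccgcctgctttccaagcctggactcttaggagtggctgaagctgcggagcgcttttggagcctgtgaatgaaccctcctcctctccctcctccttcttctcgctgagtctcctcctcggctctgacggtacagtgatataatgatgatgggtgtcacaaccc
The capitals mark GGGCGG (the GC box) on the opposite strand and GGAATG (the TEAD core) in COL12A1, CCAAT in PTX3 and GGGCGG on the opposite strand in VCAN.

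Each motif was searched on both strands of the same 250 bases in 27305 promoters, 25 of them of the matrix genes. GGGCGG was in 18 of these 25 and in 42.3% of all promoters, and CCAAT in 8 of 25 and 33.0%. GGAATG was in 5 of 25 and 11.9%, TATAAA (the TATA box) in 4 of 25 and 11.1%, and TGANTCA (the AP-1 site) in 1 of 25 and 6.60%. GACCACCCA, the GLI site that ZIC proteins are also known to bind, was in 0 of 25 and 0.216%. These are counts of letters in a window, and no matches overlap in the sequences shown.

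Whether the siRNA effect held over the lines was tested with limma (line as a block, Benjamini-Hochberg adjustment over 13794 genes), with the lines as the only replication. At an adjusted p under 0.05 it called 0 of the 30 matrix genes and 0% of all genes, with 0.268 as the lowest adjusted p. Before adjustment, 8 of 30 had a p under 0.05, against 13.2% of all genes. Those lower were COL5A2 (-0.82, SE 0.18), COL12A1, EFEMP1, PTX3, LUM (-2.13, SE 0.69) and LOXL2 (-0.70, SE 0.17). Those higher were FBN1 (0.57, SE 0.17) and VCAN. The 95% intervals of genes that missed are wide: that of COL5A1 ran from -2.23 to 0.10 and that of LAMB1, with an estimate of -0.02, from -0.54 to 0.51. On simulated arrays 200 of 13794 genes were changed, each by the same amount in both lines. The spread of each gene was drawn from the prior of the limma fit. The limma step called 0% of those changed by 1 log2 unit, 72% of those changed by 2 and 95% of those changed by 3. At 2 and 3 it also called 11 and 15 unchanged genes. On the arrays described here EFEMP1 (-2.42), PTX3 (-2.15) and LUM (-2.13) were not called, so these percentages cannot be carried over to them.

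The lines themselves differed in most of the matrix genes. In the same limma fit 23 of 30 matrix genes passed for the line difference at an adjusted p under 0.05, against 27.7% of all genes. Of these, 19 were higher in A375, against 14.2%, and 4 (FN1, TNC, LUM and LOX) were higher in SK-MEL-28, against 13.4%. Genes that pass the level minimum through one line alone must differ, so the count was repeated on genes at the minimum in each line: 18 of 25 passed, against 25.0%, with 15 higher in A375, against 12.6%, and 3 higher in SK-MEL-28, against 12.4%. The 2 transfections of a line are its only replicates. Because the fit also has a term for siRNA, each p rests on how unlike the siRNA differences of the lines were. That spread, combined with the spread of other genes, may be technical and is not one between separate cultures.

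Basement membrane genes were among those higher in A375. COL4A1 was 86.1-fold higher there (adjusted p = 0.00281 from limma, higher on 2 of 2 A375 arrays) and COL4A2 92.2-fold (adjusted p = 0.00281 from limma). Their SK-MEL-28 values were low (24.5 to 69.1), so the size of these ratios is uncertain. NID1 was 61.4-fold higher, but its SK-MEL-28 level lies under 32, and with intensities under 32 set to 32 it was 36.0-fold higher. The laminin chains LAMB1 and LAMC1 were 2.49-fold and 2.71-fold higher in A375, while LAMA4 (0.10, SE 0.21) and LAMB2 (0.64, SE 0.17) did not pass. LAMC1 lost its call with the mean over its probe sets (adjusted p = 0.0720 from limma), as did LOXL2 (0.0739) and BGN (0.0703). Basement membrane genes of the further list described below were split. LAMA1 was 50.5-fold and HSPG2 3.03-fold higher in SK-MEL-28 (adjusted p = 0.00514 and 0.0115 from limma), with LAMA1 under 32 in A375. LAMA5 (2.58-fold), AGRN (2.67-fold) and COL18A1 (2.33-fold) passed with higher values in A375. Of the 18 collagen biosynthesis genes at the level minimum, 8 passed as higher in SK-MEL-28, against 13.4% of all genes. In that list 1 gene passed as higher in A375, against 14.2%.

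The other collagens higher in A375 were COL5A2 (25.6-fold), COL6A1 (13.6-fold), COL6A3 (5.56-fold), COL9A3 (5.39-fold), COL5A1 (5.09-fold), COL6A2 (2.70-fold) and COL12A1 (2.40-fold). COL1A1 (-0.02, SE 0.21) and COL7A1 (-1.14, SE 0.31) did not pass, with adjusted p of 0.958 and 0.0704 from limma. On the probe set of lowest intensity COL6A1 and COL6A2 lost their calls (-0.07 and -0.08), as did NID1 (-0.34), so these line differences rest on the probe sets of higher intensity. COL5A1 lost its call there too, at -2.24 (adjusted p = 0.0863 from limma), as did LAMC1, TNC, BGN and LOXL2.

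Among glycoproteins TGFBI was 97.2-fold higher in A375 (SE 0.39 on a log2 difference of -6.60, adjusted p = 0.00415 from limma), THBS1 16.8-fold, PTX3 15.3-fold, EFEMP1 4.96-fold and FBN1 4.29-fold. With intensities under 32 set to 32, PTX3 was 9.19-fold and EFEMP1 3.31-fold higher. TGFBI read 75.6 and 31.2 in SK-MEL-28, so the size of its ratio is uncertain. FN1 was 7.24-fold higher in SK-MEL-28 and TNC 2.04-fold. SPARC did not pass (0.14, SE 0.18), and its intensities lay between 8519 and 12144 on all 4 arrays. Among proteoglycans LUM was 13.4-fold higher in SK-MEL-28, BGN 1.58-fold higher in A375, and VCAN (0.16, SE 0.34) and DCN (0.18, SE 0.15) did not pass. LOX was 71.1-fold higher in SK-MEL-28, from A375 values near the bottom of the scale. With intensities under 32 set to 32 LOX was 13.6-fold higher in SK-MEL-28 and LUM 9.18-fold, and EFEMP1 and BGN lost their calls (adjusted p = 0.0955 and 0.0674 from limma). LOXL2 was 2.29-fold higher in A375, so these enzymes differed between the lines in opposite directions.

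**Figure D4:**
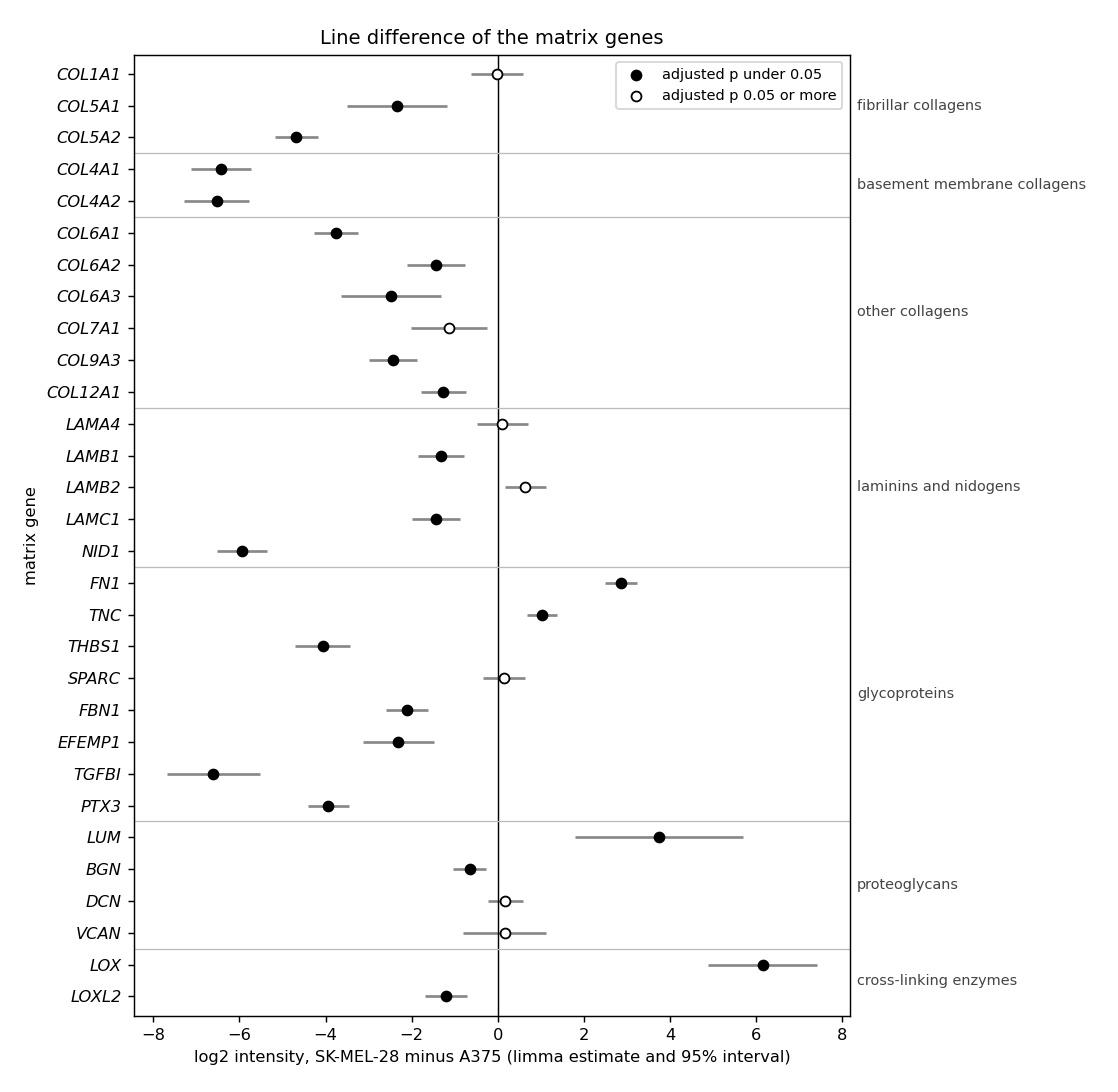
Limma estimate of the line difference (SK-MEL-28 minus A375, log2 intensity) with its 95% interval for the 30 matrix genes at the level minimum, filled where the adjusted p is under 0.05. COL4A1, COL4A2, NID1 and TGFBI lie between -5.94 and -6.60, LOX lies at 6.15, and the intervals of COL1A1, LAMA4, SPARC, DCN and VCAN include 0.

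With 4 arrays the interaction of line and siRNA could not be fitted, so whether a siRNA difference differs between A375 and SK-MEL-28 was not tested for any matrix gene.

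Genes that process collagen or receive signals from the matrix were read from lists set by function. Of 20 collagen biosynthesis genes 18 were at the level minimum, with medians of -0.15 (A375) and -0.09 (SK-MEL-28), and 7 were lower and 5 higher in both lines, beside 4487 and 4344 of all 13794 genes. PCOLCE2, an enhancer of procollagen processing, differed by -0.87 and -0.66, the collagen lysyl hydroxylase PLOD2 by -0.93 and -0.34, the collagen chaperone SERPINH1 by -0.76 and -0.46 and the prolyl hydroxylase subunit P4HA1 by -0.61 and -0.53. PCOLCE, named after its value was seen, was the one gene of the list past 2-fold (-1.03 in A375 and 0.34 in SK-MEL-28). No gene of this list was 2-fold different in SK-MEL-28.

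Of 34 further matrix genes 25 were at the level minimum, with medians of -0.07 and -0.10. The matricellular gene CCN1 differed by -1.22 and -3.56. CCN2, its relative, named after its value was seen, differed by 0.02 and -1.32. The phosphoprotein gene SPP1 (2.35 and 0.12), ECM1 (2.12 and 0.27) and the laminin chain LAMB3 (1.41 and -0.02) were at least 2-fold higher in A375 and not in SK-MEL-28, which is 3 of 25 genes against 3.89% of all genes. In SK-MEL-28, 2 of 25 (CCN1 and CCN2) were at least 2-fold lower, against 2.12%.

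Among 12 matrix receptors other than integrins 10 were at the minimum, with medians of 0.12 and 0.18. The hyaluronan receptor HMMR, which is also a mitotic gene, differed by -1.79 and 0.03, the glypican GPC1 by -0.87 and -0.40, the collagen receptor DDR2 by 0.95 and 0.29 and LRP1 by 0.94 and 0.24. Of 13 TGF-beta axis genes 11 were at the minimum, with medians of 0.08 and -0.07. LTBP2 differed by 1.25 and -0.07, the inhibitor SMAD7 by 0.79 and 0.41, the ligand TGFB1 by -0.74 and -0.24 and the receptor TGFBR2 by 0.95 and -0.03. None of the 4 lists held a gene that passed the limma adjusted p for the siRNA effect.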

How the data were processed

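RNA from 4 cultures (100 ng each, labelled as biotinylated cRNA) was hybridised to 4 arrays, per the labels' protocols. The deposited table holds 1 intensity for each probe set on each array. The submitters' processing notes name RMA and the Affymetrix Expression Console, with no versions. The deposited intensity values are linear, from 2.78 to 22531, and log2 was taken here. RMA scales arrays to a common distribution, so a change shared by most genes cannot be seen.

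Of 54613 probe sets, 41091 named 1 gene in the platform table and were used. Symbols were updated through entrez IDs to RefSeq (41037 matched). A linear model per gene, with terms for line and siRNA, was fitted to the 13794 genes at the level minimum with limma 3.58.1 (R 4.3.3; lmFit, then eBayes with an intensity trend), with 1 residual and 2.85 prior degrees of freedom. Labels name no separate cultures of a group. The number of arrays limits the precision. The fit was tested on simulated data. Alternatives were other level minimums, a floor of 32, other choices of probe set, cyclic loess, equal array medians and eBayes without a trend.

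The matrix genes and the lists were chosen with earlier results of these data known. Text names all 35 genes, and up to 4 of each further list by absolute mean siRNA difference. PCOLCE, CCN2, LOXL3, LOXL4, LAMA1, HSPG2, LAMA5, AGRN and COL18A1 fall outside that rule and were named after their values were seen. Listed genes with no value given are not analysed here.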

Additional observations from a re-analysis of the deposited data

Results flagged for a closer look

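COL6A3, LOX and TGFBI were at least 2-fold lower with ZIC5 siRNA in SK-MEL-28 and had the opposite sign in A375. The SK-MEL-28 difference minus the A375 difference was -1.46 for COL6A3, -1.66 for LOX and -1.36 for TGFBI on the log2 scale. With 1 array per group the difference between the lines was not tested. The LOX values in A375 (5.10 and 7.32) lie under 32, and with intensities under 32 set to 32 its A375 difference was 0. For TGFBI the A375 difference was 0.08, within the median SD of 0.25 between probe sets of a gene. COL6A3 had 1 probe set, with intensities above 32 on all arrays.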

How the results depend on the processing

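Alternatives changed 1 choice at a time. With a level minimum of mean log2 7, which left 23 matrix genes, 2 were at least 2-fold lower in A375, 4 in SK-MEL-28 and 1 (COL12A1) in both lines. With intensities under 32 set to 32, again 1 was at least 2-fold lower in both. On the probe set of lowest intensity at the level minimum, 2 were at least 2-fold higher in A375 (VCAN and LAMA4), and 12 were called higher in A375 than in SK-MEL-28. The other 60 counts stayed within 1.5 times the values given above, and limma called 0 of the matrix genes for the siRNA effect under each setting, with a lowest adjusted p between 0.107 and 0.385. The line term already pairs the control and ZIC5 siRNA arrays of each line, the labels give no replicate numbers for another pairing, and leaving out an array was not possible with 1 per group. Low signal limits BGN, LOX and NID1, with 2 of 4 arrays under 32, and COL4A1, COL4A2, COL5A1, COL5A2, EFEMP1, LUM, PTX3 and TGFBI, with 1. Values somewhat over 32 may be background too: the leukocyte marker CD3E read 54.0 to 59.8 and the endothelial marker PECAM1 56.9 to 88.3. In SK-MEL-28 COL4A1, COL4A2, COL5A1, COL5A2, EFEMP1, PTX3 and TGFBI read at most 75.6. Their differences there and the size of their line ratios are uncertain. In SK-MEL-28 14 and in A375 11 of the 23 genes with over 1 probe set had 1 sign on all of them.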
